A study of Mus musculus with 4 samples.

Results

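The Notch pathway was examined through 10 member genes, which were chosen by name: the ligand genes *Jag1*, *Jag2* and *Dll1*, the receptor genes *Notch1*, *Notch2* and *Notch3*, and the target genes *Hes1*, *Hey1*, *Hey2* and *Heyl*. The choice was made with earlier results of these data known. Each gene was assigned its transcript by mm10 position on the same strand, taking the transcript with the longest gene body, and all 10 were found among the 25909 named genes of the table. RNA-seq of total RNA was available for 4 libraries of immortalized mouse embryonic fibroblasts (MEF), which are C57BL/6 fibroblasts taken at embryonic day 15.5 from embryos freed of head, limbs and viscera and immortalized with simian virus 40. The libraries were *Hmga2*+/+ Ctrl, *Hmga2*+/+ TGFB1, *Hmga2*-/- Ctrl and *Hmga2*-/- TGFB1, where *Hmga2*-/- MEF lack the gene of the chromatin protein HMGA2. All cells were starved overnight in 1% FCS, after which TGFB1 cells were kept for 24 h with the human recombinant factor at 10 ng/ml and Ctrl cells received water. Starvation and immortalization were shared by both genotypes, and whether each genotype is 1 line or several is not given in the sources used here.

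Notch signalling passes between touching cells. A ligand of the Jagged or Delta family on one cell pulls on a Notch receptor of its neighbour, proteases of the ADAM family and gamma-secretase cut the receptor, and the freed intracellular domain joins the DNA-binding protein RBPJ and a Mastermind coactivator to switch on genes such as the *Hes* and *Hey* repressors. In mesenchymal cells the pathway is known for its part in smooth muscle, pericyte and myofibroblast differentiation, and *Jag1* and *Hey1* are described targets of TGF-beta signalling in several cell types.

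RPKM is the reads on the exons of a transcript scaled to its length and to the mapped reads of the library. It puts genes and libraries on a common scale but does not correct for differences in RNA composition. Its sum over all transcripts ran from 490182 in *Hmga2*+/+ Ctrl to 532537 in *Hmga2*-/- TGFB1 MEF. With 1 library per condition there is no replicate check, so no p-value is given for any gene. Intervals are 95% exact (Clopper-Pearson) intervals of the ratio of 2 read numbers, cover counting error only and compare libraries, not conditions. A gene was called higher or lower at 1.5-fold or more, which is 0.58 on the log2 scale, with 0 RPKM set to 0.001 RPKM, and no call was made where both libraries held 3 reads or fewer. Depth was alike, at 56140000 to 57300000 mapped reads. The deleted gene *Hmga2* was at 14.8 RPKM without and 40.7 RPKM with TGFB1 in *Hmga2*+/+ MEF, and no read of it (0 in each library) was found in *Hmga2*-/- MEF. *Ccn2*, which encodes connective tissue growth factor and is a known TGFB1 target, was 13.1-fold higher with TGFB1 in *Hmga2*+/+ and 14.4-fold higher in *Hmga2*-/- MEF.

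Because the data bear on genes that RBPJ is known to bind, promoters were searched for the RBPJ core GTGGGAA and for the N box CACNAG, a site of HES proteins, on both strands. RefSeq sequence on GRCm38.p6, the assembly of mm10, was available for 7 of the 10 genes, from 250 bases before to 50 bases after a transcription start site (TSS). Promoters of *Hes1*, *Hey1* and *Heyl* were not analysed here. Of the 7 genes, only *Hey2*, on the minus strand of chromosome 10, held the RBPJ core, and it held 2 matches. One lay at positions -207 to -201 from the TSS, with the core on the opposite strand, so that the strand of the gene reads TTCCCAC. The other lay across the TSS itself at positions -4 to 3. Over all 32851 promoter windows 6.38% held at least 1 match and 0.256% held at least 2. The *Hey2* bases before the TSS (chr10:30842784-30843033, read on the minus strand) are shown with the upstream match in capitals, followed by the match at the TSS with 10 bases on each side (chr10:30842771-30842797) and by the same upstream window of *Jag1* (chr2:137116521-137116770, minus strand), which held neither motif.

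Hey2 upstream: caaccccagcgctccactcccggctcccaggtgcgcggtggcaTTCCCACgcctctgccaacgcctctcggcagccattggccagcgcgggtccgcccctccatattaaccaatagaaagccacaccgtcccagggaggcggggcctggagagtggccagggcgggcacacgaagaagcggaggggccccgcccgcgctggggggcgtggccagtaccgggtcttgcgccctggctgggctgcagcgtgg
Hey2 at the TSS: gggctgcagcGTGGGAAagaacctcca
Jag1 upstream: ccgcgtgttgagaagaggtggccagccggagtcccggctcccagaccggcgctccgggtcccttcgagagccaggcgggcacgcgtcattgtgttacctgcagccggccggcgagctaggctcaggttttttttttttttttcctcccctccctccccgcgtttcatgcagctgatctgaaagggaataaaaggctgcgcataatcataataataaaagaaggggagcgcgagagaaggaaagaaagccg

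N boxes were matched 3 times in the *Notch1*, 2 times in the *Notch3* and 1 time in the *Notch2* window and 1 time in the second of 2 *Dll1* windows. This motif was found in 42.5% of all windows. No N box lay in the *Hey2* or *Jag2* window, so no member window held both motifs. A match describes the letters and does not show binding.

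Of the 3 ligand genes, *Jag1* carried nearly all of the transcript signal. *Jag1* (chromosome 2, 137081451 to 137116520, minus strand), which encodes Jagged 1, had 3.90 RPKM in *Hmga2*+/+ Ctrl, 8.72 in *Hmga2*+/+ TGFB1, 4.62 in *Hmga2*-/- Ctrl and 14.5 RPKM in *Hmga2*-/- TGFB1 MEF. Both TGFB1 libraries thus lay above both Ctrl libraries, and the highest value was that of the *Hmga2*-/- TGFB1 library. *Jag2* (chromosome 12, 112908590 to 112929495, minus strand), the paralogous Jagged ligand, had 0.258, 0.249, 0.172 and 0.311 RPKM in the same order, from 39 to 71 reads. *Dll1* (chromosome 17, 15367354 to 15375823, minus strand), a Delta ligand, had 0.220, 0.138, 0.259 and 0.139 RPKM in that order, from 27 to 50 reads. *Dll1* was the only member that was lower in both TGFB1 libraries than in both Ctrl libraries. *Jag1* made up 89.1% of the summed ligand RPKM in the *Hmga2*+/+ Ctrl library and 97.0% in the *Hmga2*-/- TGFB1 library.

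The 3 receptor genes were present at levels that differed more between genes than between libraries. *Notch2* (chromosome 3, 98013538 to 98150367, plus strand) was the highest, with 16.7 RPKM in *Hmga2*+/+ Ctrl, 21.7 in *Hmga2*+/+ TGFB1, 15.6 in *Hmga2*-/- Ctrl and 19.5 RPKM in *Hmga2*-/- TGFB1 MEF. *Notch1* (chromosome 2, 26457902 to 26503822, minus strand) had 5.46, 6.17, 5.38 and 6.33 RPKM in this order. *Notch3* (chromosome 17, 32120893 to 32166852, minus strand), the receptor typical of pericytes and vascular smooth muscle, had 1.00, 0.970, 0.850 and 1.15 RPKM. In each library the order was *Notch2*, *Notch1*, *Notch3*, and *Notch2* gave between 71.4% and 75.2% of the summed receptor RPKM. Read numbers behind these levels ran from 379 for *Notch3* to 12953 for *Notch2*.

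Among the 4 target genes, all of which encode basic helix-loop-helix repressors, *Hes1* was the highest. *Hes1* (chromosome 16, 30065357 to 30067796, plus strand) had 4.84 RPKM in *Hmga2*+/+ Ctrl, 13.7 in *Hmga2*+/+ TGFB1, 7.30 in *Hmga2*-/- Ctrl and 22.1 RPKM in *Hmga2*-/- TGFB1 MEF, the last being above the 19.5 RPKM of *Notch2* in that library. *Hey1* (chromosome 3, 8663359 to 8667038, minus strand) had 0.333, 0.715, 0.282 and 1.30 RPKM in this order, from 35 to 163 reads. *Hey2* (chromosome 10, 30832359 to 30842783, minus strand) had 0.367, 0.609, 0.322 and 1.27 RPKM, from 46 to 182 reads. These *Hey* genes had nearly the same level as each other in every library. *Heyl* (chromosome 4, 123233556 to 123249870, plus strand) had 0 reads in *Hmga2*+/+ Ctrl, where 3 reads would be 0.0118 RPKM, 23 reads or 0.0890 RPKM in *Hmga2*+/+ TGFB1, 1 read or 0.00400 RPKM in *Hmga2*-/- Ctrl and 54 reads or 0.210 RPKM in *Hmga2*-/- TGFB1 MEF. All 4 targets were higher in both TGFB1 libraries than in both Ctrl libraries.

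**Figure D1:**
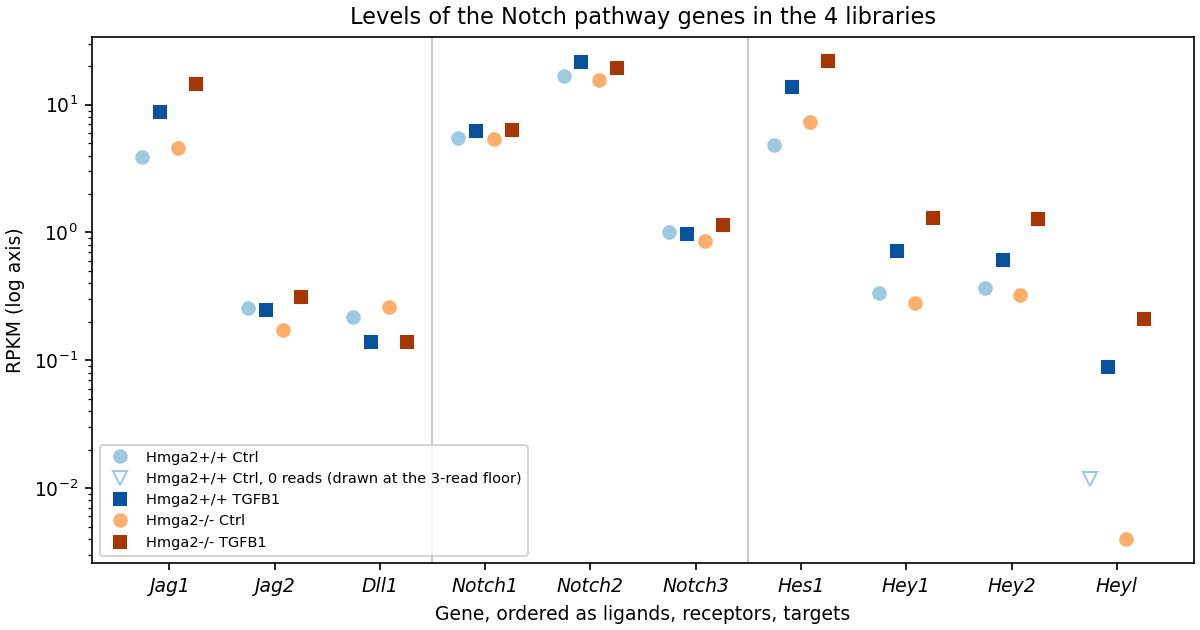
RPKM (log axis) of the 10 Notch pathway genes, with 1 point per library: circles are Ctrl, squares are TGFB1, blue is *Hmga2*+/+ and orange is *Hmga2*-/-. *Notch2* lies between 15.6 and 21.7 RPKM in all libraries, while *Hes1* runs from 4.84 to 22.1 RPKM; the open triangle is *Heyl* at 0 reads, drawn at the level of 3 reads.

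The first comparison asked how the pathway responded to TGFB1 in *Hmga2*+/+ MEF. *Jag1* and all 4 targets were called higher, 5 of 10 members, *Dll1* was called lower, and none of the 3 receptors was called. Over the 15332 named genes with more than 3 reads in at least 1 of the 2 libraries, 14.1% were called higher and 25.1% lower. Over those with a mean of at least 1 RPKM the shares were 11.6% and 15.8%, and 4 members (*Jag1*, *Notch1*, *Notch2* and *Hes1*) met that minimum. The median log2 change of the 10 members was 0.55, against -0.10 over the 15332 genes. RNA-seq of a culture cannot tell more expressing cells from more RNA per cell.

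*Hes1* was 2.83-fold higher with TGFB1 in *Hmga2*+/+ MEF (log2 change 1.5, interval 1.33 to 1.67), and *Jag1* was 2.23-fold higher (1.16, interval 1.06 to 1.26). Of 10785 genes with a mean of at least 1 RPKM, 211 had a larger log2 change than *Hes1* and 372 a larger one than *Jag1*. *Hey1* was 2.15-fold higher (1.10, interval 0.56 to 1.67) and *Hey2* 1.66-fold higher (0.73, interval 0.22 to 1.25). The lower ends for both *Hey* genes lay below 1.5-fold, so with 41 and 52 reads in the Ctrl library the call itself is within counting error. *Heyl*, at 0 reads in Ctrl, was at least 7.51-fold higher against a floor of 3 reads in the library.

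The receptors had small positive or no differences in *Hmga2*+/+ MEF. *Notch2* was 1.30-fold higher (log2 change 0.37, interval 0.34 to 0.41) and *Notch1* 1.13-fold higher (0.18, interval 0.10 to 0.25). For *Notch3* (-0.05, interval -0.24 to 0.14) and *Jag2* (-0.05, interval -0.61 to 0.50) a difference was not detectable at this depth. *Dll1* had a log2 change of -0.67, with an interval of -1.42 to 0.06 that includes 0.

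In *Hmga2*-/- MEF the same question gave 6 members called higher, *Jag1*, *Jag2* and the 4 targets, and again *Dll1* lower. In this comparison 15.9% of 15363 genes were called higher and 23.6% lower, and 13.4% and 14.1% of those with a mean of at least 1 RPKM. The members' median log2 change was 1.23, against -0.05 over all genes compared. *Jag1* was 3.15-fold higher with TGFB1 (log2 change 1.65, interval 1.57 to 1.74), *Hes1* 3.03-fold (1.6, interval 1.46 to 1.73), *Hey1* 4.62-fold (2.21, interval 1.68 to 2.78) and *Hey2* 3.93-fold (1.98, interval 1.5 to 2.48). These 4 intervals lay wholly above 1.5-fold. *Heyl* went from 1 to 54 reads, a ratio of 52.5 with an interval of 9.24 to 2159, and this ratio to 1 read cannot be set beside the bound given for *Hmga2*+/+ MEF. *Jag2* was 1.81-fold higher (0.85, interval 0.27 to 1.46), with a lower end below 1.5-fold.

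Receptors in *Hmga2*-/- MEF again stayed within 1.5-fold. *Notch3* was 1.35-fold higher (log2 change 0.43, interval 0.24 to 0.63), *Notch2* 1.25-fold (0.32, interval 0.28 to 0.36) and *Notch1* 1.18-fold (0.24, interval 0.16 to 0.31). *Dll1* was lower by a log2 change of -0.90 (interval -1.63 to -0.19), an interval that reaches inside 1.5-fold.

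**Figure D2:**
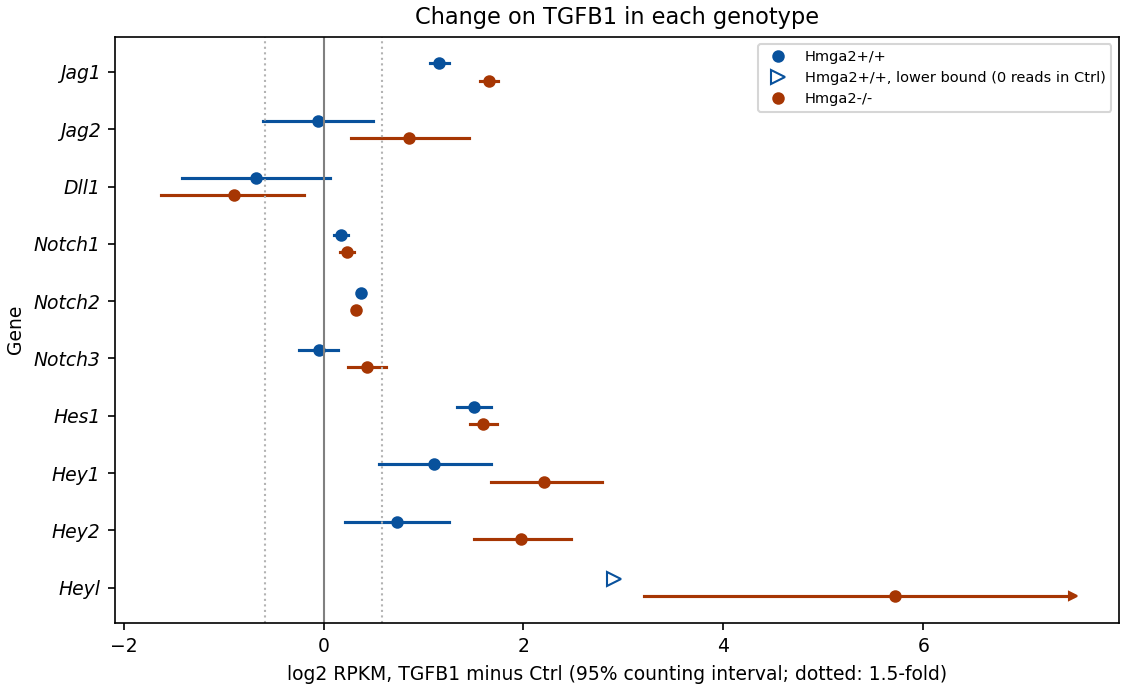
log2 change of each gene with TGFB1 against Ctrl, in *Hmga2*+/+ (blue) and *Hmga2*-/- (brown) MEF, with 95% counting intervals; dotted lines mark 1.5-fold and the open triangle is the lower bound for *Heyl*. The receptors lie between -0.05 and 0.43, whereas *Jag1* and *Hes1* lie between 1.16 and 1.65.

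**Figure D3:**
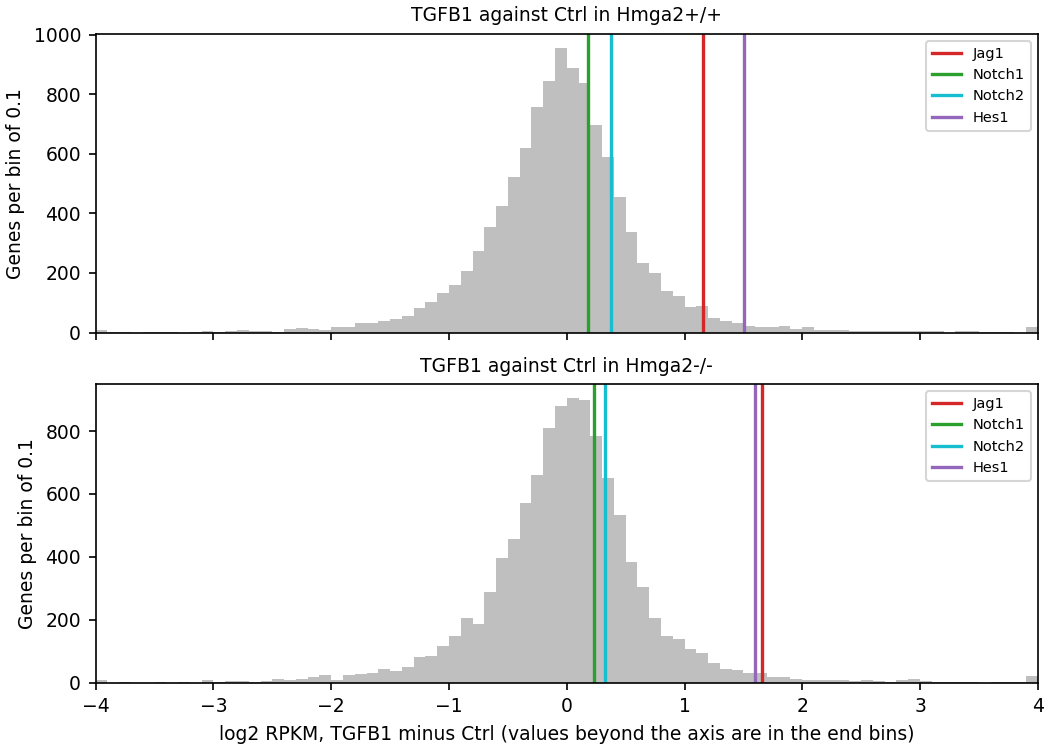
Number of genes (mean of at least 1 RPKM) per 0.1 of log2 change with TGFB1, in *Hmga2*+/+ (top) and *Hmga2*-/- (bottom) MEF, with vertical lines at the 4 members that meet this minimum. *Jag1* and *Hes1* lie in the right tail of both histograms, with 372 and 211 genes beyond them in *Hmga2*+/+ MEF. *Notch1* and *Notch2* lie between the centre and that tail, with 3451 and 2146 genes beyond them in *Hmga2*+/+ MEF.

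The difference between these responses was then taken as the log2 change in *Hmga2*-/- minus that in *Hmga2*+/+ MEF, with a normal interval from the 4 read numbers. *Hey2* (1.25, interval 0.57 to 1.93) and *Hey1* (1.11, interval 0.36 to 1.85) had the largest differences among the 9 members with reads in all libraries. *Jag1* had a difference of 0.49 (interval 0.36 to 0.63), *Notch3* of 0.48 (0.21 to 0.75) and *Jag2* of 0.91 (0.13 to 1.68). *Hes1* had 0.10 (interval -0.12 to 0.31), *Notch1* 0.06 (-0.04 to 0.16), *Notch2* -0.05 (-0.11 to 0.00) and *Dll1* -0.23 (-1.20 to 0.75). The interval lay above 0 for 5 of these 9 members, while those of *Hes1*, *Notch1*, *Notch2* and *Dll1* reached 0. Of 15169 genes with reads in all 4 libraries, 20.1% had an interval above 0 and 12.5% one below 0, so an interval above 0 was common among all genes. Over 10780 genes with a mean of at least 1 RPKM the median difference was 0.05, and 95% of them lay below 0.46, just under the value of *Jag1*. *Ccn2* responded by 3.71 in *Hmga2*+/+ and 3.85 in *Hmga2*-/- MEF, and *Smad7*, the inhibitory SMAD induced by TGF-beta, by 0.73 and 1.12. Whether a stronger TGFB1 effect in that culture has a part in the values of the Notch genes was not tested.

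Without TGFB1, few of the 10 members differed between the genotypes. Of them, only *Hes1* was called higher in *Hmga2*-/- than in *Hmga2*+/+ MEF, by 1.51-fold (log2 change 0.59, interval 0.41 to 0.78), and *Jag2* was called lower exactly at 1.5-fold, with a log2 change of -0.58 and an interval of -1.21 to 0.03 that includes 0. The lower end for *Hes1* was 1.33-fold, so its call is within counting error. Of 15349 genes, 7.87% were called higher and 8.22% lower. Of those with a mean of at least 1 RPKM, 2.22% and 1.89% were called, and 231 of these 10780 genes had a larger log2 change than *Hes1*. *Jag1* was 1.18-fold higher (0.24, interval 0.13 to 0.36), *Notch2* had a log2 change of -0.10 (-0.14 to -0.06) and *Notch3* of -0.24 (-0.44 to -0.04). Differences of *Notch1* (-0.02, interval -0.10 to 0.05), *Dll1* (0.24, interval -0.38 to 0.87), *Hey1* (-0.24, interval -0.93 to 0.45) and *Hey2* (-0.19, interval -0.79 to 0.41) were not detectable at this depth. *Heyl*, with 0 and 1 reads, was not compared. The median of the other 9 members was -0.10, against -0.02 over all genes compared.

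Under TGFB1, *Jag1* and all 4 targets were called higher in *Hmga2*-/- than in *Hmga2*+/+ MEF, 5 of 10 members, and none was called lower. The background was 9.32% higher and 7.59% lower of 15059 genes, and 2.99% and 1.95% of those with a mean of at least 1 RPKM. *Jag1* was 1.67-fold higher (log2 change 0.74, interval 0.67 to 0.81), *Hes1* 1.61-fold (0.69, interval 0.58 to 0.80), *Hey1* 1.82-fold (0.87, interval 0.49 to 1.25), *Hey2* 2.08-fold (1.06, interval 0.68 to 1.44) and *Heyl* 2.36-fold (1.24, interval 0.51 to 2.01). Only the intervals of *Jag1* and *Hey2* lay wholly above 1.5-fold. The lower ends were 1.498-fold for *Hes1*, 1.40-fold for *Hey1* and 1.43-fold for *Heyl*, so these calls are within counting error. With a mean of at least 1 RPKM, 187 of 10780 genes had a larger log2 change than *Jag1* and 223 a larger one than *Hes1*. *Notch2*, the main receptor, was lower by a log2 change of -0.15 (interval -0.19 to -0.12), *Notch1* had 0.04 (-0.03 to 0.11) and *Notch3* 0.24 (0.06 to 0.43). The members' median was 0.51, against 0.04 over all genes compared. This comparison and the 3 before it use the same 4 libraries in pairs, so their values are not independent of each other.

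**Figure D4:**
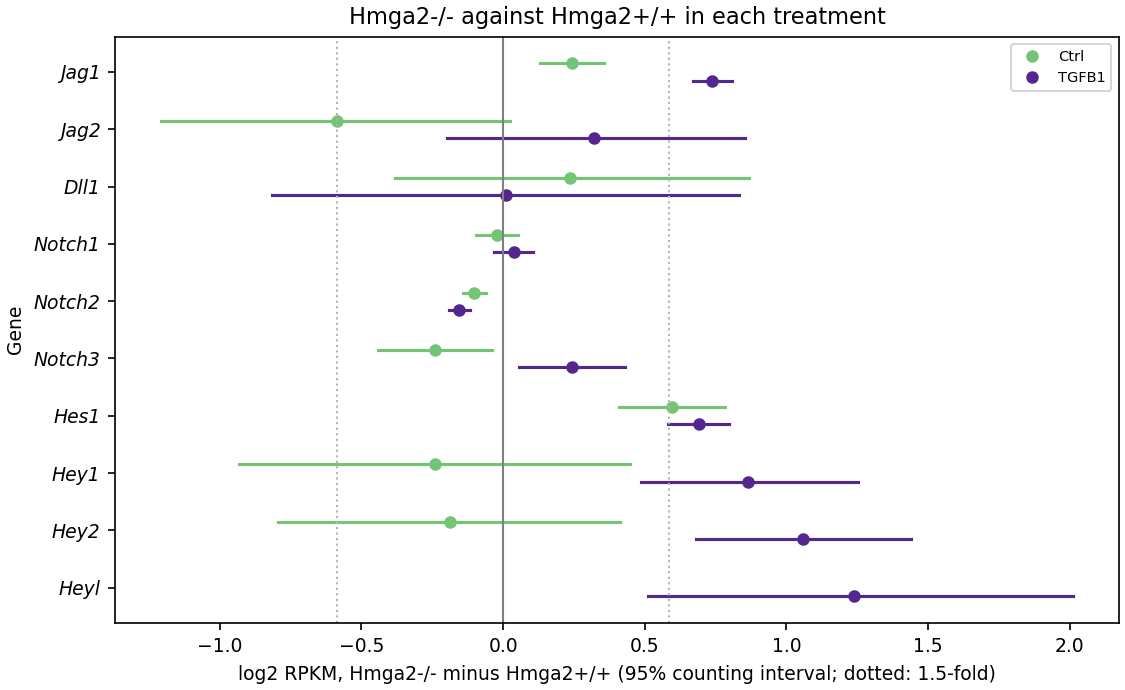
log2 change of each gene in *Hmga2*-/- against *Hmga2*+/+ MEF, in Ctrl (green) and under TGFB1 (purple), with 95% counting intervals and dotted lines at 1.5-fold; *Heyl* in Ctrl is not drawn. Under TGFB1 *Jag1* and the 4 targets lie between 0.69 and 1.24, while in Ctrl only *Hes1*, at 0.59, passes the upper line.

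The receptor genes *Notch1* and *Notch2* had more than 1 transcript in the table. The second *Notch2* transcript, which ends inside the gene and has 1870 counted bases, had log2 changes with TGFB1 of 0.30 in *Hmga2*+/+ and 0.33 in *Hmga2*-/- MEF, next to 0.37 and 0.32 for the full one. *Notch1* had 6 transcripts, of which 5 were short pieces inside the gene. Their log2 changes with TGFB1 ran from -0.10 to 0.61 in *Hmga2*+/+ MEF, the highest being that of a piece of 480 bases at 2.34 and 3.56 RPKM. Transcripts of 1 gene share reads and are not independent. The transcripts of *Hes1* and *Notch1* used here cover 71.5% and 78.1% of the span of their GENCODE gene and those of the other members 89.0% or more.

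Of the other genes of the pathway, 48 were listed and all 48 were in the table. With TGFB1, 3 were called higher and 10 lower in *Hmga2*+/+ MEF, and 4 higher and 8 lower in *Hmga2*-/- MEF, with 7 and 8 at 3 reads or fewer in both libraries. Of the 41 and 40 genes compared these are 7.32% higher and 24.4% lower in *Hmga2*+/+ and 10.0% higher and 20.0% lower in *Hmga2*-/- MEF, near or below the 14.1% and 25.1% and the 15.9% and 23.6% of all genes, so the counts are no result about the list. Their median log2 change was -0.14 in both genotypes. Between genotypes, *Lfng* and *Neurl1a* (2 genes) were called higher in *Hmga2*-/- MEF and *Dll3* and *Dlk1* (2 genes) lower in Ctrl, while under TGFB1 4 were higher (*Nrarp*, *Lfng*, *Psen2* and *Neurl1a*) and 3 lower (*Notch4*, *Dlk1* and *Neurl1b*). In Ctrl 4.88% of those compared were called in each direction, against 7.87% and 8.22% of all genes, and under TGFB1 10.0% and 7.5%, against 9.32% and 7.59%. *Lfng* and *Psen2* stood at 1.52-fold under TGFB1, and the 4 genes called higher there became 2 after rescaling by the median ratio, 1 with a pseudocount of 0.1 RPKM and 0 at a 2-fold threshold. *Psen2* and *Nrarp* lie outside the rule for named genes and were named after their values were seen. The median log2 change of the list between genotypes was -0.01 in Ctrl and 0.02 under TGFB1.

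Further ligands and receptors were low or lower with TGFB1. *Dlk1*, an imprinted Delta-like gene without the domain that activates receptors, had 4.01 RPKM in *Hmga2*+/+ Ctrl, 2.26 in *Hmga2*+/+ TGFB1, 2.32 in *Hmga2*-/- Ctrl and 1.47 RPKM in *Hmga2*-/- TGFB1 MEF. It was lower with TGFB1 by log2 changes of -0.82 (interval -0.97 to -0.68) and -0.66 (-0.84 to -0.47), and lower in *Hmga2*-/- MEF by -0.79 (interval -0.93 to -0.64) in Ctrl and -0.62 (-0.81 to -0.43) under TGFB1. *Notch4*, the receptor typical of endothelium, had 33, 11, 26 and 7 reads, and *Dlk2* 0.482, 0.398, 0.642 and 0.513 RPKM in the order given for *Dlk1*. *Dll4* had 0, 0, 1 and 0 reads and *Dll3* 4, 0, 0 and 0 reads, so that *Dll3* is counted as lower only because 0 RPKM was set to 0.001 RPKM, while against the floor of 3 reads the difference with TGFB1 is at least 1.36-fold, under the threshold.

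Other *Hes* genes except *Hes6* were nearly silent. *Hes5* had 0 reads in all 4 libraries, which allows up to 3 reads in each, and *Hes2*, *Hes3* and *Hes7* had 3 reads or fewer in each. *Hes6* had 1.27 RPKM in *Hmga2*+/+ Ctrl, 1.13 in *Hmga2*+/+ TGFB1, 1.26 in *Hmga2*-/- Ctrl and 1.06 RPKM in *Hmga2*-/- TGFB1 MEF, with log2 changes with TGFB1 of -0.17 (interval -0.61 to 0.26) and -0.26 (-0.70 to 0.19). *Nrarp*, a Notch target that limits the pathway, had 0.388, 0.475, 0.467 and 0.839 RPKM in this order. Its log2 change with TGFB1 was 0.29 (interval -0.24 to 0.83) in *Hmga2*+/+ and 0.85 (0.41 to 1.30) in *Hmga2*-/- MEF.

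Fringe enzymes add sugars to Notch receptors and so tune which ligand they answer. *Lfng* had 0.644 RPKM in *Hmga2*+/+ Ctrl, 0.677 in *Hmga2*+/+ TGFB1, 1.14 in *Hmga2*-/- Ctrl and 1.03 RPKM in *Hmga2*-/- TGFB1 MEF. It was higher in *Hmga2*-/- MEF by 0.82 (interval 0.42 to 1.23) on the log2 scale in Ctrl and 0.60 (0.21 to 1.01) under TGFB1. *Rfng* was lower with TGFB1 by -0.50 (interval -0.71 to -0.29) and -0.48 (-0.69 to -0.27), and *Mfng* had 1 read in the *Hmga2*+/+ TGFB1 library and 0 in the others.

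Of the genes for proteases, nuclear partners and ubiquitin ligases, 7 were called with TGFB1 in the same direction in both genotypes, 2 higher and 5 lower. In each genotype 10 protease genes, 10 genes of the nuclear complex and 11 genes of ubiquitin ligases and trafficking were compared. Over 14894 genes, 10.3% were called higher and 17.5% lower in both genotypes, and the count is given as a description. *Furin*, which encodes the convertase that cuts Notch receptors on their way to the surface, had 7.75, 11.8, 6.78 and 14.4 RPKM in the order *Hmga2*+/+ Ctrl and TGFB1, *Hmga2*-/- Ctrl and TGFB1, with log2 changes of 0.61 (interval 0.52 to 0.70) and 1.09 (1.00 to 1.17). *Fbxw7*, a ubiquitin ligase subunit that targets the cleaved Notch domain for degradation, had log2 changes of 0.59 (0.47 to 0.71) and 0.64 (0.53 to 0.74). Lower in both were *Dtx3* (9.76 to 3.92 and 7.14 to 4.19 RPKM), *Mib2* (4.46 to 2.59 and 3.65 to 2.22 RPKM), *Neurl1b* (151 to 50 and 122 to 28 reads), *Neurl1a* (62 to 37 and 101 to 60 reads) and the gamma-secretase gene *Aph1c* (43 to 15 and 37 to 16 reads). *Mib2*, *Neurl1a* and *Neurl1b* encode ubiquitin ligases that act on Notch ligands.

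*Rbpj*, the DNA-binding partner of the receptors and also named after its values were seen, was not called in either genotype. It had 11.4, 16.0, 12.4 and 15.6 RPKM, and log2 changes with TGFB1 of 0.49 (interval 0.43 to 0.56) and 0.33 (0.27 to 0.39). Calls made in a single genotype included the following, with *Maml3*, *Psen2*, *Numbl*, *Nrarp* and *Kat2b* chosen after their values were seen: *Maml3* higher and *Dll3*, *Psen2* and *Numbl* lower in *Hmga2*+/+ MEF, and *Nrarp* higher and *Kat2b* lower in *Hmga2*-/- MEF.

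**Figure D5:**
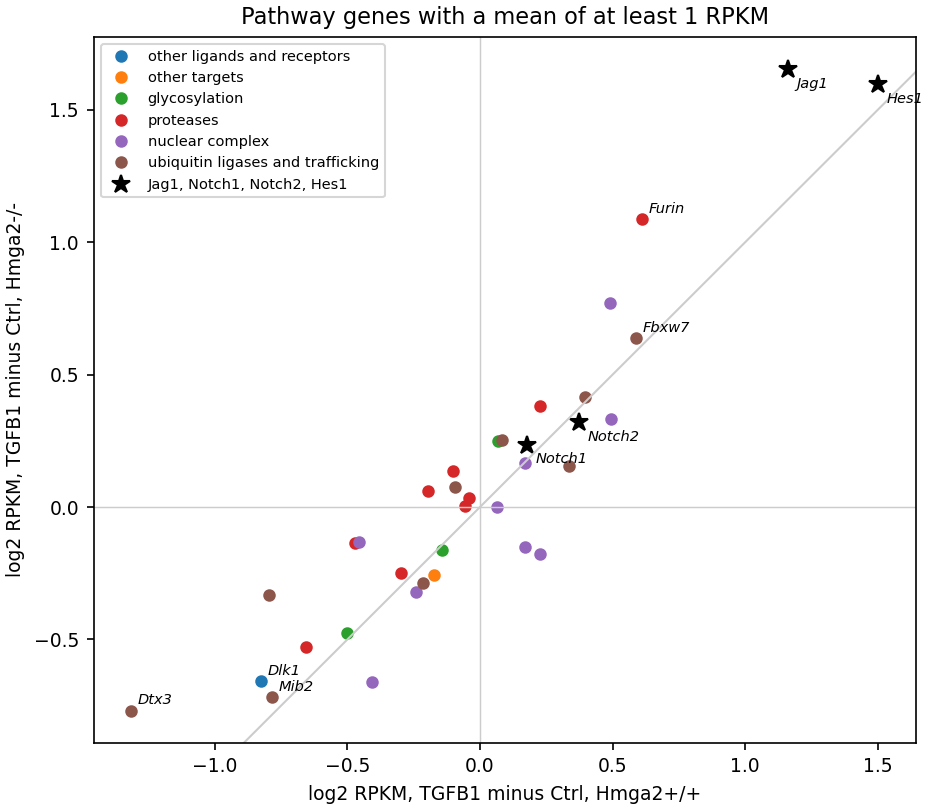
log2 change with TGFB1 in *Hmga2*+/+ (x axis) against *Hmga2*-/- MEF (y axis) for pathway genes with a mean of at least 1 RPKM, coloured by list, with the 4 members of that level as stars and a line of equal change. *Jag1* (1.16 and 1.65) and *Hes1* (1.5 and 1.6) lie apart at the upper right, followed by *Furin* (0.61 and 1.09), and *Dtx3* (-1.32 and -0.77) lies at the lower left.

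The gene whose pattern over the 4 libraries was most like that of *Hes1*, the member with the largest change in *Hmga2*+/+ MEF among those with a mean of at least 1 RPKM, was *AA467197*, with 1.95, 5.48, 2.97 and 8.93 RPKM. Its distance was 0.02 on the log2 scale after each gene was centred on its mean. *Cgref1* and *Pdgfa* followed at 0.14 and 0.15, and 99 of 10788 genes lay within 0.5. With 4 libraries such likeness is a description.

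The fibroblast label was checked on 8 markers, among them *Col1a1* and *Pdgfrb*, all of which had more than 1 RPKM in every library. Some were lower with TGFB1 in both genotypes: *Dcn* had 7.20, 2.68, 8.46 and 2.07 RPKM, *Pdgfra* 24.4, 11.2, 27.1 and 15.3 RPKM and *Col3a1* 287, 176, 237 and 141 RPKM, with Ctrl before TGFB1 and *Hmga2*+/+ before *Hmga2*-/- libraries. Others were higher with TGFB1 in both genotypes. In the same order *Pdgfrb* had 36.1, 48.3, 31.5 and 49.9 RPKM and *Thy1* 5.3, 8.5, 4.1 and 8.9 RPKM. *Col1a1* had 325, 363, 272 and 363 RPKM. *Col1a2* and *Vim* changed in opposite directions in the genotypes. Of 6 endothelial markers, the defining *Pecam1*, *Cdh5* and *Emcn* had at most 0.0480 RPKM in any library, while *Kdr* had 1.11, 4.46, 1.46 and 7.39 RPKM and *Tek* 2.75, 0.330, 5.65 and 0.686 RPKM in the order *Hmga2*+/+ Ctrl and TGFB1, *Hmga2*-/- Ctrl and TGFB1. Their summed level was 4.00, 5.03, 7.30 and 8.34 RPKM. The 5 smooth muscle and pericyte markers summed to 9.84, 19.3, 11.2 and 27.5 RPKM, which ranked the 4 libraries as *Jag1* and *Hes1* did. Most of this sum was *Cspg4* (8.78, 17.5, 8.85 and 23.6 RPKM). *Cnn1* had 0.938, 1.45, 2.23 and 3.49 RPKM and *Rgs5* 0.057, 0.278, 0.022 and 0.361 RPKM. Both were higher with TGFB1 in each genotype, but neither ranked all the libraries as *Jag1* did. *Myh11* and *Des* had at most 0.0540 RPKM, from 20 reads or fewer, and were lower with TGFB1 in each genotype. The 4 neural and glial markers, mainly *Tubb3*, summed to 1.268, 2.995, 1.273 and 4.487 RPKM, which also ranked the libraries as *Jag1* and *Hes1* did. The part of these markers in the results on *Jag1*, *Hes1*, *Hey1* and *Hey2* was not tested. Sums of 4 skeletal muscle markers reached 0.00800 RPKM, of 4 epithelial markers 1.04 and of 3 blood markers 1.63 RPKM, the last mainly from *Cd68*.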

How the data were processed

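After trimming (Trimmomatic) and mapping to mm10 (HISAT2 2.1.0), the authors made HOMER tag directories and deposited RPKM for 63759 UCSC known-gene transcripts on the annotated strand, rounded to 3 decimals. The file header names exons as the counted feature, the methods name genes. The methods speak of sequencing in duplicates, and whether these were pooled into the 1 column per condition is not stated. The other deposited column used is transcript length in bases.

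A transcript took the symbol of the same-strand GENCODE vM21 gene that covered 50% or more of it (57708 transcripts, 90.5%). Mapped reads per library were derived as the total that turns RPKM into whole reads for transcripts under 600 bases and values under 200 reads; all 1863 to 1912 values per library lay within 0.1 of a whole read. These reads gave the intervals (scipy 1.17.1); no count test was run. As in the study, 0 RPKM was set to 0.001 and 1.5-fold was the threshold. Named were all members, listed ligands, receptors, Fringe and *Hes* genes, and other listed genes called with TGFB1 in both genotypes. Members and lists were chosen with earlier results of these data known. Steps were tested on simulated data. Computation used Python 3.11.15, numpy 2.4.6 and pandas 2.3.3, and figures matplotlib 3.10.9. Protein sequences were not used here, and some genes are counted in the lists but not reported by name.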

Additional observations from a re-analysis of the deposited data

Results flagged for a closer look

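Some genes had opposite signs of the log2 change with TGFB1 in the genotypes, and the difference was not tested over replicates. Among members, *Jag2* had -0.05 in *Hmga2*+/+ and 0.85 in *Hmga2*-/- MEF and *Notch3* had -0.05 and 0.43, where the interval in *Hmga2*+/+ MEF includes 0, so an opposite direction was not established. For *Lfng*, with 0.07 (interval -0.38 to 0.52) and -0.14 (-0.49 to 0.21), both intervals include 0. For *Maml3*, which encodes a Mastermind coactivator, with 0.64 (0.26 to 1.03) and -0.09 (-0.47 to 0.30), only the interval in *Hmga2*-/- MEF includes 0. An opposite direction was thus not established for these genes either.

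Of the other pathway genes, 3 had intervals on opposite sides of 0, all at differences well under 1.5-fold, and were named after their values were seen. *Spen*, a corepressor gene, had 0.23 (interval 0.17 to 0.28) in *Hmga2*+/+ and -0.18 (-0.23 to -0.12) in *Hmga2*-/- MEF. *Ep300*, a histone acetyltransferase gene, had 0.17 (0.13 to 0.22) and -0.15 (-0.20 to -0.11). *Adam10*, the gene of a protease that cuts Notch receptors, had -0.10 (-0.15 to -0.06) and 0.13 (0.09 to 0.18). Rescaling by the median ratio takes off a shift of -0.09 in *Hmga2*+/+ MEF, which lies inside the *Adam10* interval there. An opposite direction was thus not established for *Adam10*.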

How the results depend on the processing

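With 1 library per condition, no replicate could be left out and differences between cultures cannot be told apart from the conditions. No paired analysis was possible because each condition has 1 library. The alternatives were set with earlier results known. Of 200 values of members (log2 changes and differences of responses) under 4 alternatives, 177 kept their side of the 1.5-fold threshold and 21 no longer passed it. The difference of responses of *Heyl*, -0.76 with 0 RPKM set to 0.001, reversed to 0.66 with a pseudocount of 0.1 RPKM and 0.15 with 1 RPKM; it rests on 0 reads in *Hmga2*+/+ Ctrl and is not reported above. Of 48 counts of the other pathway genes under the alternatives, 29 moved by more than 1.5 times. With TGFB1 in *Hmga2*+/+ MEF, their 3 higher became 0 and 10 lower became 4 with a pseudocount of 1 RPKM. Choosing the transcript with the highest mean RPKM changed no call of a member.

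In *Hmga2*+/+ MEF, 2 members were higher with TGFB1 with a pseudocount of 1 RPKM and 2 with a mean of at least 1 RPKM, against 5, and 0 were lower under pseudocounts of 0.1 and 1 RPKM, rescaled libraries, a 2-fold threshold and the minimum of 1 RPKM, against 1. In *Hmga2*-/- MEF, 2 were higher with the minimum, against 6, and 0 lower with a pseudocount of 1 RPKM, a 2-fold threshold and the minimum. Between Ctrl libraries, 0 were higher with a pseudocount of 1 RPKM and a 2-fold threshold, and 0 lower under every alternative but the choice of transcript. Under TGFB1, 2 were higher with a pseudocount of 1 RPKM, a 2-fold threshold and the minimum, against 5. The minimum leaves 4 members to compare, and pseudocounts shrink changes of genes with low RPKM by construction. Rescaling by the median ratio moved log2 changes by at most 0.09.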
